A study of Rattus norvegicus with 24 samples.

Results

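A set of 10 genes of the lung capillary endothelium was followed across 24 rat lung samples. The members are listed by name out of 30667 genes in the table, a choice made with earlier results of these data known, and all 10 were found there: Car4, Ednrb, Apln and Kdr as genes of aerocytes, Aplnr, Plvap and Gpihbp1 as genes of general capillary cells, and Cldn5, Cdh5 and Pecam1 as genes of endothelial cells at large. The series concerns a rat lung cancer model set up with smoky coal, a coal that gives off polycyclic aromatic hydrocarbons when burnt, and gene expression was measured by mRNA sequencing of lung tissue. The 24 titles combine the letters A, B, C and G with the numbers 1 to 6, giving 6 samples for a letter and 4 for a number. All 24 samples carry the same label, smoky coal. The labels used here give no strain, sex, age, dose, time or control for any letter, nor the meaning of a number, and p-values measure only the spread between these samples. Values are normalized read counts per gene, not divided by gene length, so levels of different genes were not compared.

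Gas exchange in the lung takes place across capillaries built of a pair of endothelial cell types. Aerocytes are large, thin cells facing the air spaces, and general capillary cells are smaller cells that regulate vessel tone and can divide to renew both types. The pair is linked by apelin signalling, since aerocytes make the ligand apelin (Apln) and general capillary cells carry its receptor (Aplnr). Vascular endothelial growth factor from alveolar type 1 cells acts through its receptor Kdr, which aerocytes carry in high amount. In whole tissue, fewer cells of a type and less RNA per cell cannot be told apart.

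The tissue label was checked against defining genes. The alveolar type 2 gene Sftpc had 603887 to 932776 normalized counts and the alveolar type 1 gene Ager 112843 to 194247 over the 24 samples, and no gene of the preset alveolar or endothelial lists was at 0 in any sample. The 10 members had 1039 to 117709 normalized counts. Sums per sample were 61717516 to 66007148 after the authors' normalization, so the depth sequenced is unknown. A2 had the highest summed level of neutrophil genes (31092) and of proliferation genes (11473) of the 24 samples. Skeletal muscle genes summed to 70030 in A4 and 15888 in B4, and to 1529 to 3531 in the other 22. The counts of members called over numbers and in each number are therefore repeated without A2, A4 and B4.

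The starts of 6 members were found in the RefSeq promoter table of assembly GRCr8, those of all 4 aerocyte genes, Plvap and Cldn5. Promoter stretches of 300 bases, from 250 before to 50 after the start of the gene, are shown for 3 of them. Ednrb and Plvap were lowest in samples numbered 2 in every letter, and Cldn5 had the largest difference between letters among the members. Capitals mark GGAAG or its reverse complement, the core bound by ETS factors, the family to which the endothelial regulators Erg and Fli1 belong. The Ednrb stretch lies at chr15:87086716-87087015 (minus strand), that of Plvap at chr16:18231230-18231529 (minus strand) and that of Cldn5 at chr11:95718549-95718848 (minus strand).
Ednrb: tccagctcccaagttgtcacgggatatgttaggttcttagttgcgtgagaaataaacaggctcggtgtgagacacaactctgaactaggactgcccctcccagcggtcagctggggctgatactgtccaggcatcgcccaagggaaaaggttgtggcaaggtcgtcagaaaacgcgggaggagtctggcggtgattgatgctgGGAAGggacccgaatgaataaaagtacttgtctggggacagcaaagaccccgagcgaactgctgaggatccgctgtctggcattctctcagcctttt
Plvap: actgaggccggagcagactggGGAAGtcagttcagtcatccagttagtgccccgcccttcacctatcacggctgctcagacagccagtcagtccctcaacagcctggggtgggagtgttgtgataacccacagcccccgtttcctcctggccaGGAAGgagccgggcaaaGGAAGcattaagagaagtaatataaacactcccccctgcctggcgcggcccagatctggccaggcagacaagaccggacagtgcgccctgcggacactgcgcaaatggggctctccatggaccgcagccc
Cldn5: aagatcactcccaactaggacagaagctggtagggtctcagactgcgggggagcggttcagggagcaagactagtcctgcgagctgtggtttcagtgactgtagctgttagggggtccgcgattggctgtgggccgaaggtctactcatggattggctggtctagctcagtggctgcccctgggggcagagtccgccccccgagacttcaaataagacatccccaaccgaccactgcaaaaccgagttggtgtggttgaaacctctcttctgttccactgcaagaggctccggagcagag
On both strands, GGAAG occurred 1 time in the Ednrb stretch, 3 times in that of Plvap and 0 times in that of Cldn5. It was present in 5 of the 6 member promoters and in 70.1% of all 33469 promoters of the same length. The SOX core ACAAT was in 0 of 6 (33.7% of all promoters), the hypoxia response core ACGTG in 1 of 6, Car4 (19.3%), and the xenobiotic response core GCGTG, bound by the aryl hydrocarbon receptor, in 2 of 6, Ednrb and Kdr (29.7%). ACGTG and GCGTG share their last 4 letters but not a position, and a match describes letters in a window, not a bound site.

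The members followed the number in the sample title more than the letter. In a fit with letter and number as terms, all 10 members differed between the 6 numbers (limma F test, adjusted p from 3.46e-05 for Ednrb to 0.00891 for Apln), where 31.5% of all genes tested were called, and 58.3% of the 9352 genes with a mean of at least 1000 normalized counts. Without A2, A4 and B4 the F test still called 10 of 10. Number accounted for 79.5% of the variance of Car4 between samples on the log2 scale, 78.9% of Ednrb, 78.4% of Kdr and 75.5% of Cdh5. The share was lowest in Cldn5, at 40.6%, and the median was 37.1% for all genes and 53.7% for the abundant ones just described. The letter accounted for 2.38% (Kdr) to 38.8% (Cldn5) of the variance of members, with a median of 9.45% over all genes.

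**Figure D1:**
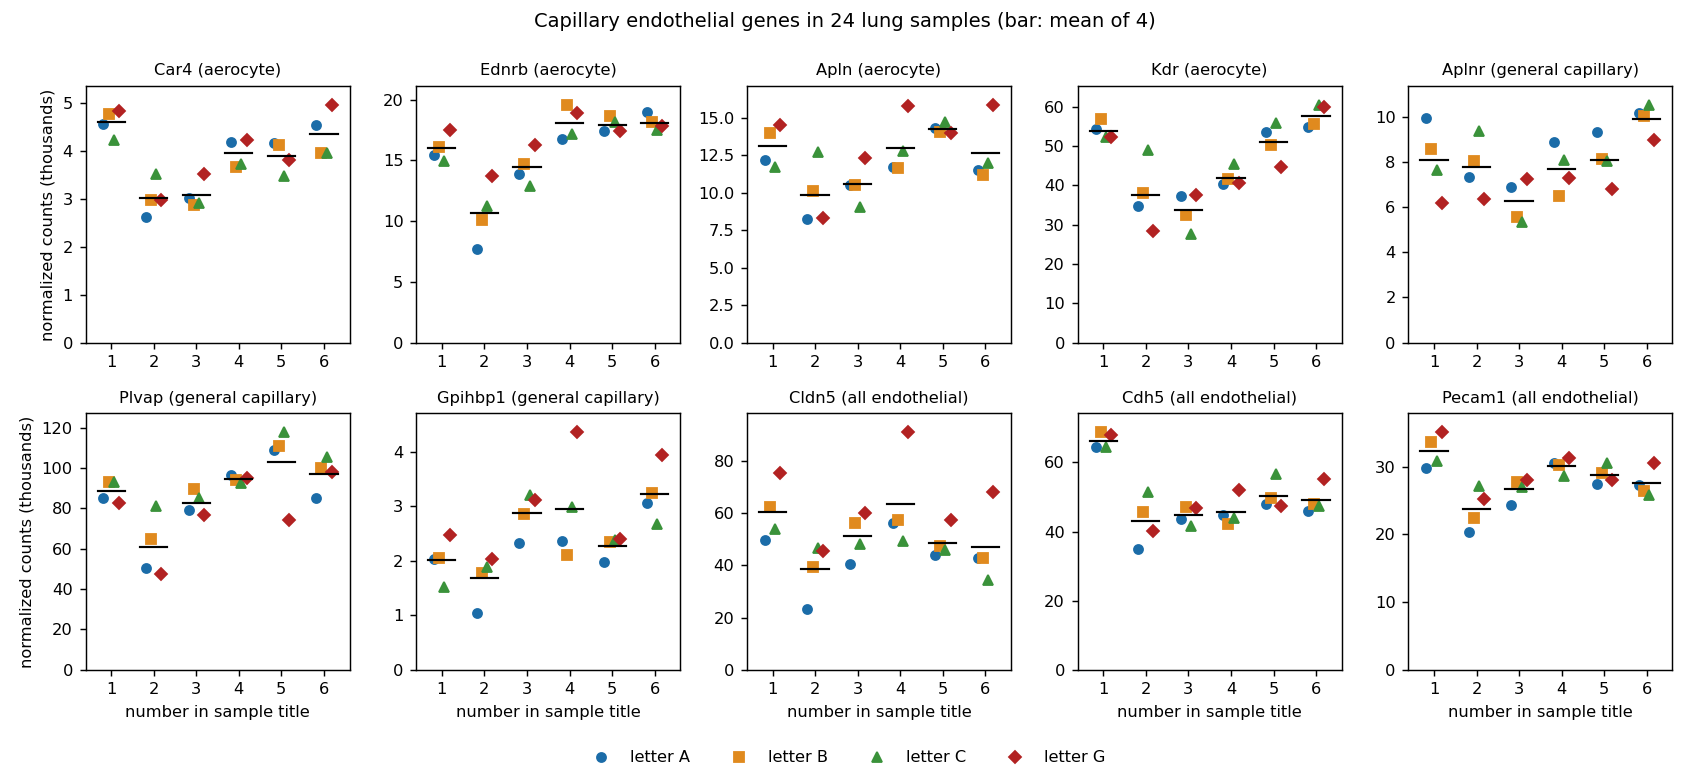
Normalized counts (in units of 1000, linear axis from 0) of the 10 members in 24 samples, by the number in the sample title on the x axis; symbols and colours show the letter and bars the mean of 4 samples. Samples numbered 2 are low in most panels, and in Cdh5 the 4 samples numbered 1 lie above all others.

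Samples numbered 2 had the lowest mean level in 8 of 10 members, all but Kdr and Aplnr, which were lowest in number 3. Against the mean of the other 5 numbers, 9 of 10 members were lower (limma adjusted p under 0.05), all 4 aerocyte genes, Plvap and Gpihbp1 among the general capillary genes, and all 3 genes of endothelial cells at large. By the same call 10.3% of all genes, and 23.0% of genes with a mean of at least 1000, were lower in number 2. The median log2 difference of the 10 members was -0.38, against 0.01 over all genes and -0.02 over the abundant ones. Without A2, A4 and B4 the count was 6 of 10.

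Ednrb encodes the endothelin B receptor, which binds and clears endothelin and marks aerocytes. It had 7670 normalized counts in A2, 10055 in B2, 11250 in C2 and 13755.5 in G2, while the other 20 samples had 12906.5 to 19545. A2, B2 and C2 lay below every sample of the other numbers and G2 lay within their range. The log2 difference was -0.69 (SE 0.08, limma adjusted p = 4.26e-06), and number 2 was the lowest of 6 in 4 of 4 letters.

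Plvap encodes the protein of the diaphragms that span endothelial caveolae and fenestrae. It had 50485 normalized counts in A2, 64913 in B2, 81199 in C2 and 47675 in G2, and 74449 to 117709 in the other 20 samples. C2 lay inside the range of the others and the remaining samples numbered 2 lay below it. The log2 difference was -0.63 (SE 0.08, limma adjusted p = 2.39e-05).

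Gpihbp1 holds lipoprotein lipase at the capillary wall. It had 1039, 1778, 1893 and 2034 normalized counts in A2, B2, C2 and G2, and 1520 to 4359 in the other samples. Only A2 lay below all samples of the other numbers. The log2 difference was -0.67 (SE 0.12, limma adjusted p = 0.000556). Lpl, the enzyme that Gpihbp1 anchors, was also lower in number 2, by a log2 difference of -0.41 (adjusted p = 2.20e-05).

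The other aerocyte members were also lower in number 2. Car4 encodes a membrane-anchored carbonic anhydrase that speeds the exchange of carbon dioxide, and had 2622, 2980, 3527 and 2973 normalized counts in A2, B2, C2 and G2, against 2867 to 4952 in the others. Its log2 difference was -0.38 (SE 0.07, limma adjusted p = 0.000362). Apln had 8263, 10084, 12733 and 8329 in those samples and 9035 to 15828 in the others. Its log2 difference was -0.38 (adjusted p = 0.00644), and Kdr, at 34729, 37952, 49146 and 28344 normalized counts in those samples, had -0.34 (adjusted p = 0.00835). The differences of Apln, Kdr and Cdh5 rested on A2 and on G2, since leaving out A2 alone or G2 alone took their adjusted p-values past the threshold, to at most 0.0710, 0.0868 and 0.145.

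Aplnr was the member not called in number 2. It had 7334 normalized counts in A2, 8045 in B2, 9358 in C2 and 6338 in G2, and 5350 to 10507 in the other samples, so the samples numbered 2 lay well inside the range of the rest. The log2 difference was -0.03 (SE 0.09, limma adjusted p = 0.871), and its sign changed without A2 or without G2 (0.06 and 0.02). The difference between Aplnr and any other member was not tested.

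Among the genes of all endothelial cells, Cldn5, the tight junction claudin of endothelium, was lower in number 2 by a log2 difference of -0.50 (limma adjusted p = 0.00187). Pecam1, an adhesion molecule of endothelial junctions that platelets and leukocytes also carry, was lower by -0.29 (adjusted p = 0.000397). Cdh5, the cadherin of endothelial adherens junctions, was lower by -0.25 (adjusted p = 0.0117). Of the 18 further genes listed for endothelial cells at large, 11 were lower and 0 higher in number 2, with a median log2 difference of -0.29.

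Markers of other cells moved with number 2. All 4 proliferation genes were higher, with a summed level of 2733 to 11473 normalized counts in number 2 and 1166 to 4455 in the other numbers. Of 4 neutrophil genes 1 was called higher (Csf3r), with sums of 4806 to 31092 in number 2 and 2640 to 14365 elsewhere, and 5 of 6 alveolar type 1 genes were lower, with sums of 228385 to 320614 against 292149 to 381497. All 4 red blood cell genes were lower, with sums of 125019 to 235098 against 136407 to 1058230. Of 6 alveolar type 2 genes 2 were higher, with sums of 1324650 to 1756380 against 1157680 to 1738210, 2 of 3 club cell genes were lower, with sums of 308582 to 440132 against 376592 to 665445, 1 of 4 pericyte genes was lower, with sums of 20889 to 29167 against 22054 to 39574, and 1 of 3 ciliated cell genes was lower. Called higher in number 2 were 3527 of all 30667 genes and 18.3% of those with a mean of at least 1000. Called lower there were 10.3% and 23.0%. For short lists, the counts of neutrophil, alveolar type 2, pericyte and ciliated cell genes were not far above those shares. The F test over numbers called 0 of 4 neutrophil genes. None of these markers was at 0 in any sample, and their part in the result was not tested.

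**Figure D2:**
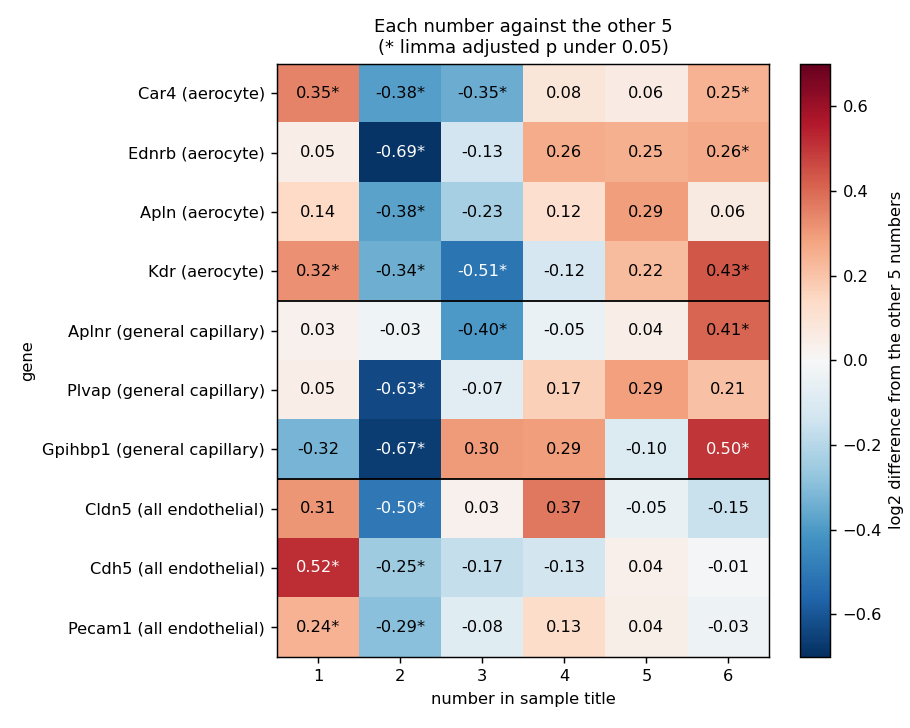
Log2 difference of each number from the mean of the other 5 numbers (columns) for each member (rows), from the fit with letter and number; red is higher, blue lower, and an asterisk marks a limma adjusted p under 0.05. The column of number 2 is blue in all 10 rows, palest in Aplnr (-0.03), and the column of number 6 is red in the 7 aerocyte and general capillary rows.

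Samples numbered 1 had the highest means of Cdh5, Pecam1 and Car4. Cdh5 had 64479 normalized counts in A1, 68671 in B1, 64370 in C1 and 67806 in G1. The other 20 samples had 34842 to 56520, so the ranges did not overlap. The share of all genes with such separate ranges was not counted. The log2 difference of Cdh5 was 0.52 (SE 0.07, limma adjusted p = 6.16e-05). Pecam1 was higher by 0.24 (adjusted p = 0.00388), Car4 by 0.35 (adjusted p = 0.00188) and Kdr by 0.32 (adjusted p = 0.0244). Thus 4 of 10 members were higher in number 1, and 5.62% of all genes and 12.6% of genes with a mean of at least 1000 were. The Kdr call was lost without A1, B1 or G1 (adjusted p up to 0.123), and without A2, A4 and B4 the counts were 3 of 10 higher and 1 lower (Gpihbp1).

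None of the 3 general capillary members was called in number 1. Aplnr and Plvap differed from the other numbers by 0.03 and 0.05 on the log2 scale, and Gpihbp1 by -0.32 (limma adjusted p = 0.0997). Gpihbp1 had 2040, 2048, 1520 and 2472 normalized counts in A1, B1, C1 and G1. Of 10 further general capillary genes, however, 6 were higher and 0 lower in number 1 (median log2 difference 0.29), and of 10 further aerocyte genes 2 were higher and 1 lower (median 0.17). Mural cell genes moved with number 1: 4 of 4 pericyte genes were higher, with sums of 37554 to 39574 normalized counts against 20889 to 31630 in the other numbers, and 3 of 4 smooth muscle genes, with sums of 20707 to 29792 against 10908 to 24601. Called lower in number 1 were 6.25% of all genes and 8.71% of those with a mean of at least 1000. All 4 red blood cell genes were lower, with sums of 160369 to 220109 against 125019 to 1058230. Their part in the Cdh5 and Pecam1 values was not tested.

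In samples numbered 3 the lowest member was Kdr, the main signalling receptor for vascular endothelial growth factor A. It had 37217 normalized counts in A3, 32350 in B3, 27738 in C3 and 37581 in G3, against 28344 to 60428 in the others, a log2 difference of -0.51 (SE 0.09, limma adjusted p = 0.00191). Car4 was lower by -0.35 (adjusted p = 0.00387) and Aplnr by -0.40 (adjusted p = 0.0145). Aplnr had 6897, 5543, 5350 and 7238 normalized counts there, the lowest of 6 in 3 of 4 letters. These 3 of 10 members compare with 2.09% of all genes and 3.45% of genes with a mean of at least 1000 called lower in number 3, and the count was also 3 without A2, A4 and B4. The Aplnr call was lost without A3, B3 or C3 (adjusted p up to 0.160).

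Plvap and Gpihbp1 had log2 differences of -0.07 and 0.30 in number 3, with limma adjusted p of 0.750 and 0.199. Called higher in this number were 2.89% of all genes and 6.44% of those with a mean of at least 1000. Of 6 alveolar type 2 genes 4 were higher, with sums of 1448480 to 1738210 normalized counts against 1157680 to 1756380 elsewhere. Of 4 pericyte genes 2 were lower, with sums of 22054 to 26885 against 20889 to 39574, and 1 of 3 club cell genes was lower, with sums of 397836 to 502036 against 308582 to 665445. Their part in the Kdr result was not tested.

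In samples numbered 6, 5 of the 7 aerocyte and general capillary members were higher, and so 5 of 10 members in all, Kdr by a log2 difference of 0.43 (SE 0.09, limma adjusted p = 0.00553), Aplnr by 0.41 (adjusted p = 0.0108), Gpihbp1 by 0.50 (adjusted p = 0.0165), Car4 by 0.25 (adjusted p = 0.0292) and Ednrb by 0.26 (adjusted p = 0.0365). Of all genes 4.11%, and of genes with a mean of at least 1000 7.38%, were called higher in number 6. Further genes of these classes were divided, with 2 of 10 aerocyte genes higher and 1 lower (median 0.07), and 3 of 10 general capillary genes higher and 3 lower (median -0.09). Aplnr had 10144 normalized counts in A6, 10026 in B6, 10507 in C6 and 8978 in G6, the highest of 6 in 4 of 4 letters, and 5350 to 9922 in the other samples. Kdr had 54925, 55704, 60428 and 59860, and up to 56836 in the others.

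The 3 members of endothelial cells at large were not called in number 6, with log2 differences of -0.15 (Cldn5), -0.01 (Cdh5) and -0.03 (Pecam1). Of the 18 further genes of that kind, 3 were higher and 1 lower. Without A2, A4 and B4 the count of members higher in number 6 was also 5, but it was 3 in a fit with no letter term, and 2 without A6, 1 without B6 and 2 without C6. Of these calls, that of Kdr held without any 1 sample. Those of Aplnr (lost without B6 or C6), Gpihbp1 (A6 or B6), Car4 (any of the 4 samples numbered 6) and Ednrb (A6, B1, B6, C1 or C6) did not, with adjusted p up to 0.0733, 0.119, 0.153 and 0.253. Called lower in number 6 were 4.02% of all genes and 8.94% of those with a mean of at least 1000. Of 4 smooth muscle genes 3 were lower, with sums of 10908 to 15629 normalized counts against 11384 to 29792 in the other numbers. Of 6 alveolar type 2 genes 2 were lower, with sums of 1174630 to 1278010 against 1157680 to 1756380. Their part was not tested.

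In numbers 4 and 5, 0 of the 10 members were called by limma. Without A2, A4 and B4 the count was 0 in number 4 and 1 higher in number 5 (Ednrb). In number 4 it was 2 higher among genes with a mean of at least 10 and 1 higher after quantile normalization, and leaving out 1 sample at a time gave 0 to 2 higher in either number (2 in number 4 without A2, A6 or C2, and 2 in number 5 without C2). At an unadjusted p under 0.05 there were 4 in each, Ednrb, Gpihbp1, Cldn5 and Pecam1 in number 4 and Ednrb, Apln, Kdr and Plvap in number 5, all of them higher, beside 5939 and 4684 of all 30667 genes in either direction. The largest log2 differences were 0.37 in Cldn5 for number 4 (adjusted p = 0.0516) and 0.29 in Apln and Plvap for number 5 (adjusted p = 0.116 and 0.0793). Of all genes, 4.74% and 1.97% were called in those numbers. Ordered by their means, neighbouring numbers overlapped in every member except Cdh5, where number 5 lay below number 1. The ratio of the highest to the lowest number mean was 1.36 in Pecam1 to 1.92 in Gpihbp1.

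Aerocyte and general capillary genes were then set against each other. For each class a score was formed by centring every gene's log2 values on 0 and averaging the genes of the class in each sample. The index is the aerocyte score minus the general capillary score. No test was made of it, since it is built from the members. The index was 0.25 ± 0.11 in number 1 (SD, n = 4), 0.10 ± 0.09 in number 5, -0.0034 ± 0.08 in number 2, -0.04 ± 0.13 in number 4, -0.10 ± 0.09 in number 6 and -0.21 ± 0.13 in number 3. Number 1 samples had 0.11 to 0.38 and number 3 samples -0.39 to -0.09, so these ranges did not overlap. With the median of the members in place of their mean, number 1 had 0.155. Without Kdr, number 4 had 0.0136, and numbers 3 and 6 both had -0.1497, so the place of number 3 as the lowest rested on Kdr.

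The 10 further genes of each class did not follow the index. In number 1 the further aerocyte genes had a mean score of 0.06 and the further general capillary genes 0.26, and in number 3 these were 0.05 and -0.02.

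In number 2 both classes were low to a like degree, with scores of -0.37 ± 0.22 for aerocyte and -0.37 ± 0.27 for general capillary genes. In number 3 the aerocyte score was -0.25 ± 0.15 and the general capillary score -0.05 ± 0.06. In number 1 these were 0.18 ± 0.09 and -0.07 ± 0.11, and in number 6 they were 0.21 ± 0.10 and 0.31 ± 0.06. The general capillary class was itself mixed, as Gpihbp1 and Aplnr pointed in opposite directions in number 3 (0.30 and -0.40). By letter the index averaged 0.01 ± 0.10 for the A samples, -0.02 ± 0.19 for B, -0.06 ± 0.21 for C and 0.07 ± 0.20 for the G samples (SD, n = 6 each), and the ranges of all letters overlapped.

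**Figure D3:**
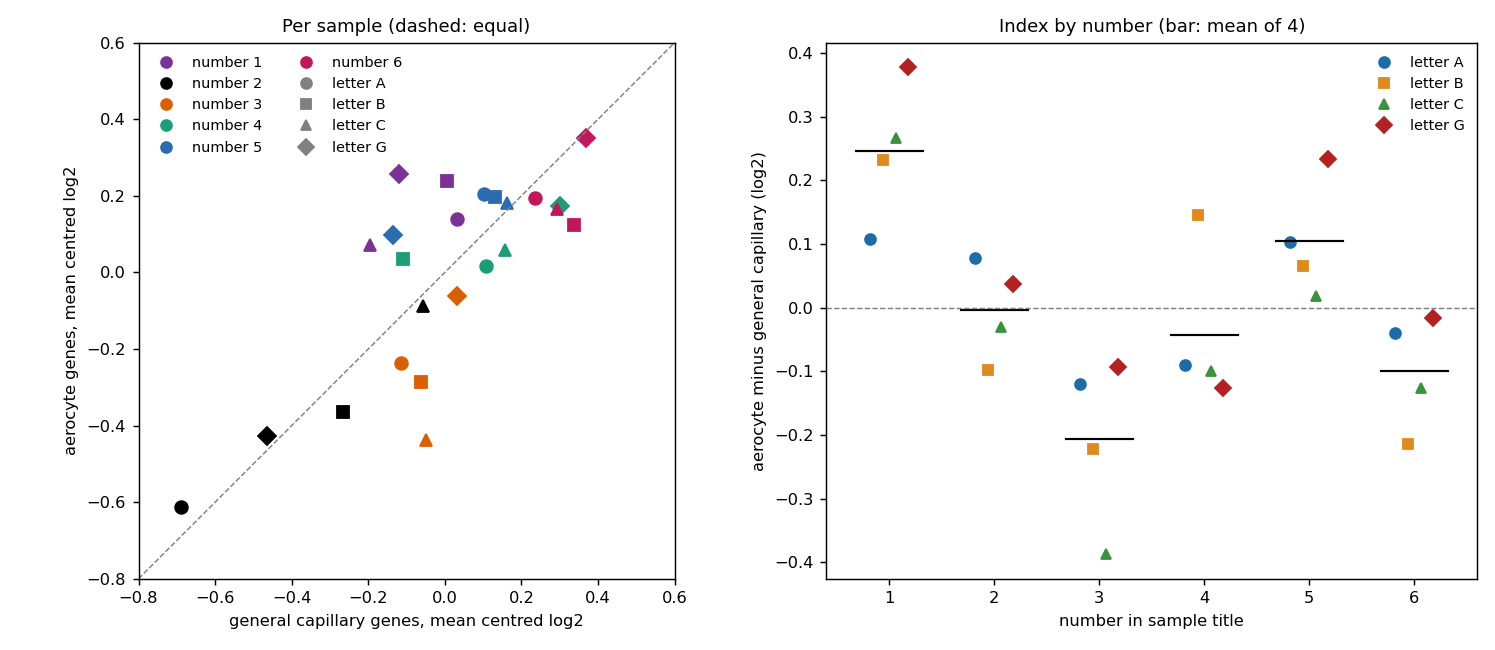
Left, the aerocyte score against the general capillary score of each of 24 samples (centred log2 units; colour, number; symbol, letter; dashed line, equal scores). Right, the index by number, with bars at the mean of 4: samples numbered 1 lie at 0.11 to 0.38 and samples numbered 3 at -0.39 to -0.09.

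Between letters no member was called in the fit with letter alone. With the number as a block, Cldn5 and Gpihbp1 were called in G against A, where 391 genes (1.27%) of all were. So were 2 of the 18 further genes listed for endothelial cells at large. The numbers were not shown to pair G with A. The fit with letter alone leaves differences between numbers in its spread (SE of Cldn5 in G against A 0.18, and 0.11 with the block). The values that follow are from the fit with letter alone except where stated. In the limma F test over letters 0 of 10 members passed, where 2 genes (0.00652%) of 30667 did. At an unadjusted p under 0.05 the count was 1199 of all genes and 1 of 10 members, Cldn5, with an unadjusted limma p of 0.00866 that did not pass adjustment. In the 6 pairs of letters 0 members passed, and at an unadjusted p under 0.05 there were Cldn5 in G against A and in G against C and Gpihbp1 in G against A. Of all genes limma called 0 for B minus A (1099 at an unadjusted p under 0.05), 0 for C minus A (913), 0 for C minus B (558), 2 (0.00652%) in G against A (2500), 1 (0.00326%) in G against B (1125) and 2 (0.00652%) in G against C (1235). Cldn5 and Gpihbp1 had the largest log2 differences among members, both in G against A.

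Cldn5 had a median of 43339 normalized counts in A (lowest 23175, highest 56047), 51695 in B (39373 to 62286), 47408 in C (34557.5 to 54023) and 63984 in G (45412 to 90892). G was higher than A at 6 of 6 equal numbers, and 5 of the 6 G samples lay above every A sample, while the ranges of the letters overlapped. How many of all genes had G above A at 6 of 6 numbers was not counted, here or for the members below. The log2 difference G minus A of Cldn5 was 0.65 (limma adjusted p = 0.302 with letter alone and 0.00921 with the number as a block).

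Gpihbp1 had a median of 2182 normalized counts in A (lowest 1039, highest 3064), 2228 in B (1778 to 3256), 2535 in C (1520 to 3207) and 2795 in G (2034 to 4359). G was higher than A at 6 of 6 numbers, and the ranges overlapped. The log2 difference was 0.53 (limma adjusted p = 0.552 with letter alone and 0.0478 with the number as a block). Pecam1 was also higher in G than in A at 6 of 6 numbers, by 0.16 (adjusted p = 0.699). With the number as a block all 4 red blood cell genes were also called in G against A, and 0 with letter alone. Their sums were 125019 to 309284 normalized counts in G and 154299 to 1058230 in A, and their part was not tested.

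The ligand Apln and its receptor Aplnr leaned apart in G. Apln averaged 11411 ± 1998 normalized counts in A and 13460 ± 2827 in G (SD, n = 6), and Aplnr 8743 ± 1347 and 7134 ± 1009. Their log2 differences in G minus A were 0.23 and -0.29 (limma adjusted p = 0.718 and 0.623), neither of which passed. Apln was higher in G at 5 of 6 numbers and Aplnr lower at 5 of 6. Ednrb, Car4, Kdr, Plvap and Cdh5 had log2 differences of 0.22, 0.08, -0.08, -0.09 and 0.14 in the same pair. The signs for Car4 (without A2), Kdr and Plvap (without G2) changed, to -0.02, 0.04 and 0.05.

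**Figure D4:**
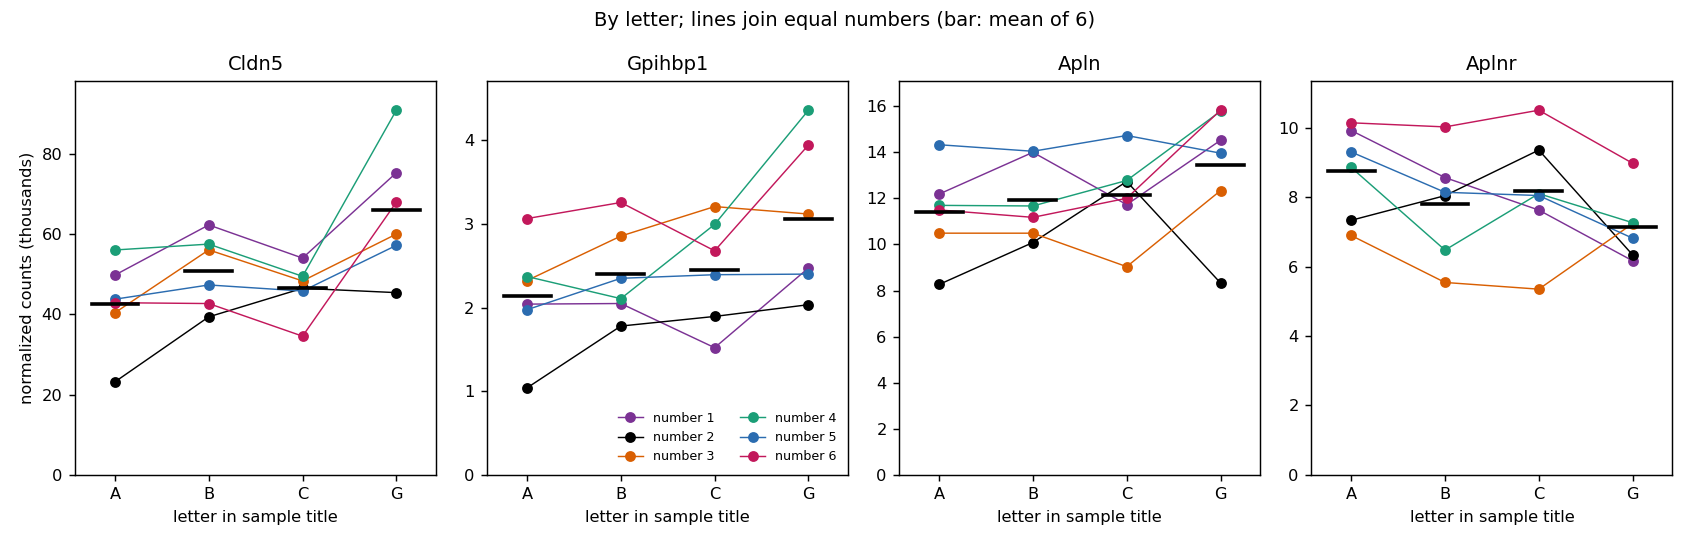
Normalized counts (in units of 1000, linear axis from 0) of Cldn5, Gpihbp1, Apln and Aplnr by letter; thin lines join samples of equal number and thick bars are means of 6. Cldn5 and Gpihbp1 are higher in G than in A along all 6 lines, Apln along 5, and Aplnr is lower along 5.

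Members were compared with one another over the 24 samples on the log2 scale. Of 45 pairs, 42 had a positive Pearson r, with a median of 0.57 and a range from -0.25 to 0.84, and 30 had a permutation adjusted p under 0.05 (100000 resamples, Benjamini-Hochberg over the 45; p-values below are for r, then rho). Samples of equal number resemble each other, so the 24 are not fully independent and r is also given after centring on the number means. The median r was 0.51 with such centring.

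Cldn5 and Pecam1 were the closest pair, at r = 0.84 and rho = 0.84 (two-sided permutation p = 1e-05 for each, the smallest that the resampling can give, adjusted p = 0.00015 and 0.00045). Their r was 0.79 without A2 and G4, the samples farthest from the median, and 0.82 when centred by number. Car4 and Kdr had r = 0.80 and rho = 0.72 (permutation p = 2e-05 and 0.00013, adjusted p = 0.00015 and 0.000975), 0.77 without A2 and B3, but 0.36 when centred by number. Car4 and Apln had r = 0.77 and rho = 0.66 (permutation p = 2e-05 and 0.00072, adjusted p = 0.00015 and 0.00324), 0.70 without A2 and B3 and 0.72 when centred.

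Within a class the aerocyte genes had r between 0.50 and 0.80 over 6 pairs, and the general capillary genes between -0.0037 and 0.46 over 3 pairs. Centred by letter and number, the medians of these classes were 0.48 and 0.45. Aplnr resembled Kdr most among members, at r = 0.76 and rho = 0.74 (permutation p = 1e-05 and 9e-05, adjusted p = 0.00015 and 0.000975), 0.67 without C3 and G2 and 0.67 when centred by number. Its r with Apln was 0.33 and rho 0.25 (permutation p = 0.115 and 0.243, adjusted p = 0.140 and 0.296), 0.25 without A2 and G2 and 0.62 when centred by letter and number. With Gpihbp1 it was -0.0037 (rho -0.02, permutation p = 0.986 and 0.925, adjusted p = 0.994 and 0.925; 0.17 without B3 and C3, and 0.33 when centred by letter and number).

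Gpihbp1 and Cldn5 had r = 0.59 and rho = 0.37 (permutation p = 0.00313 and 0.0722, adjusted p = 0.00612 and 0.112). The relation rested on A2 and G4, since r was 0.16 without them, and it was 0.82 when centred by number. Aplnr and Cldn5 had the lowest value of all pairs, r = -0.25 and rho = -0.34 (permutation p = 0.249 and 0.103, adjusted p = 0.295 and 0.149), -0.27 without B3 and C3 and -0.32 when centred by number. The sign turned only with letter and number both taken out, as r was -0.01 when centred by letter and 0.27 when centred by both.

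**Figure D5:**
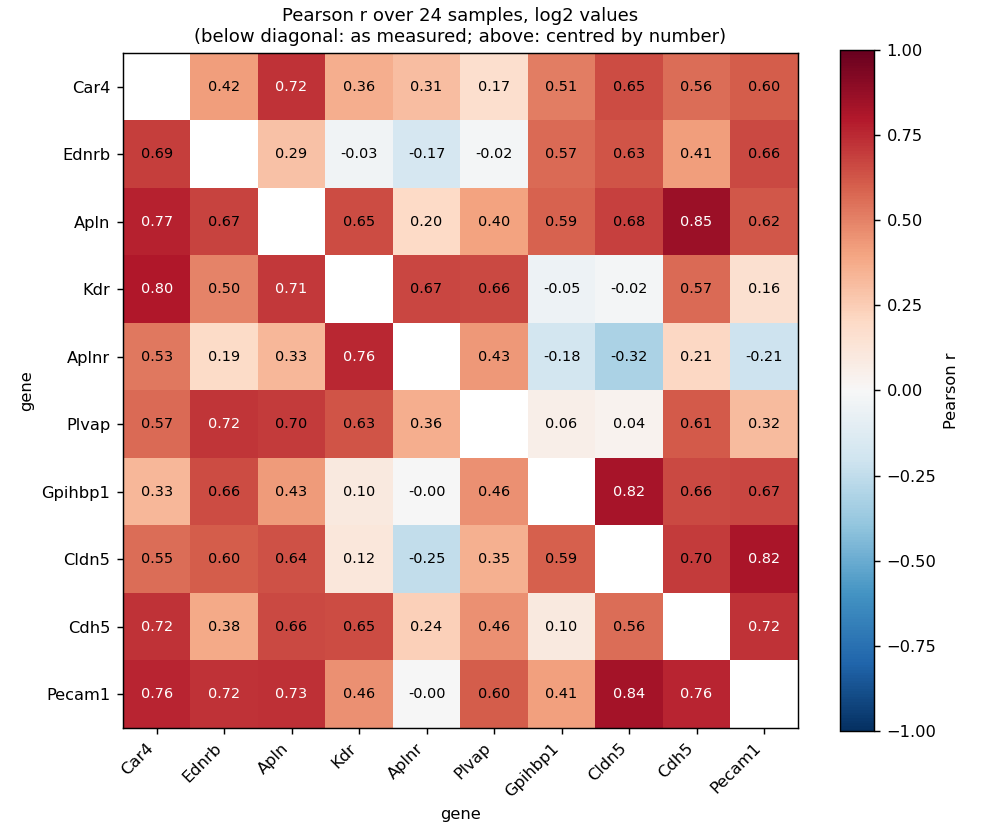
Pearson r between members over 24 samples (log2 values; both axes list the members), as measured below the diagonal and centred by number above it. Many cells of Aplnr (-0.25 to 0.76 as measured) and of Gpihbp1 (-0.0037 to 0.66) are pale. Cldn5 and Pecam1 have 0.84 below and 0.82 above the diagonal.

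Other genes with the same pattern were named by a fixed rule, the highest Pearson r among 15904 genes with a mean of at least 100 normalized counts, and carry no p because they were picked by that r. Among the closest to the aerocyte score were Tmem47 (r = 0.94), Tmem100 (0.94), Sh3tc2 (0.94) and Osbpl5 (0.92). Tmem100 is a membrane protein of endothelial cells downstream of bone morphogenetic protein signalling, and its r was 0.89 when centred by number. Closest to the general capillary score were Mettl7a1 (0.90), Selenop (0.88), Synm (0.87), Ushbp1 (0.87) and Ace (0.87), and Ace encodes angiotensin-converting enzyme on the lumen of lung capillaries. Apln was most like Tmem100 (0.87), Ablim3 (0.87) and Osbpl5 (0.86). Car4 was most like Fkbp9 (0.93), Tbx2 (0.91) and Tbx5 (0.91), of which Tbx2 was already listed as an aerocyte transcription factor.

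The partners of the members were read from a list of 16 ligands, receptors and enzymes, 15 of which were in the table. By the limma F test over numbers 11 of 15 were called, beside 31.5% of all genes and 58.3% of those with a mean of at least 1000. Over letters 0 of 15 were called, and 2 of all 30667 genes. Of the ligands for Kdr and its relatives, Vegfa was lower in number 2 by a log2 difference of -0.20, Vegfc was higher in number 1 by 0.44, Pgf was higher in number 1 by 0.55, and Vegfd was higher in number 5 by 0.79 and lower in number 2 by -0.44. Vegfb was not called by the F test (adjusted p = 0.0746). Against the other numbers, number 2 gave 8 of 15 lower and 0 higher. By that call 10.3% of all genes and 23.0% of those with a mean of at least 1000 were lower.

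Among the receptors, Flt1, the decoy-like receptor for the same ligands, was lower in number 2 by -0.57 (limma adjusted p = 5.13e-06), the lowest value of the list there. Nrp1, a co-receptor of Kdr, was higher in number 1 by 0.43, and lower in number 2 by -0.32 and in number 4 by -0.36. Flt4, the receptor of lymphatic endothelium, was lower in number 2 by -0.35 and higher in number 5 by 0.25, and Nrp2 was not called by the F test (adjusted p = 0.265).

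In the endothelin system Edn3 was lower in number 2 by -0.45 and higher in number 5 by 0.41, and Ece1, the enzyme that matures endothelins, was lower in number 2 by -0.30. Ednra, the receptor of smooth muscle, was higher in number 1 by 0.32 and lower in number 3 by -0.47. Edn1, the main endothelial endothelin, was not called by the F test (adjusted p = 0.270), nor was Edn2, which averaged 3.25 normalized counts. These differences passed limma at an adjusted p under 0.05 except where stated.

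Further class genes did not all follow the members. Of 10 further aerocyte genes, 8 differed between numbers by the limma F test, which called 31.5% of all genes and 58.3% of abundant ones. In number 2, 4 were lower and 1 higher (median log2 difference -0.17). Chst1, a sulfotransferase, was higher in number 2 by 0.59 and lower in number 1 by -0.57, opposite to Car4, Kdr and Cdh5 in sign. Fibin and Sirpa were higher in number 3 by 0.73 and 0.63, where Kdr and Car4 were lower. Fibin was lower in number 6 by -0.77, where Kdr and Car4 were higher. Of 10 further general capillary genes 9 differed between numbers, 6 were higher in number 1 and 4 lower in number 2. Tek, the angiopoietin receptor, was lower in number 2 by -0.59 and higher in number 6 by 0.33. Sema3c, a semaphorin, was higher in number 1 by 0.68 and lower in numbers 4 and 6 by -0.38 and -0.34. None of these 20 genes was called between letters in the fit with letter alone.

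Apelin is induced by low oxygen in many endothelial cells, so 10 hypoxia targets were read beside Apln. By the limma F test 4 of 10 differed between numbers, near the 31.5% of all genes and under the 58.3% of abundant ones. In number 2, where Apln was lower, 4 were higher, Slc2a1, Pgk1, Ldha and Car9, and 1 was lower, Bnip3, with a median log2 difference of 0.075. There 3527 of all 30667 genes and 18.3% of abundant ones were called higher. Of these hypoxia targets, Pgk1 and Car9 were not called by the limma F test over numbers (adjusted p = 0.122 and 0.112). Car9 averaged 18.2 normalized counts. The 10 targets summed to 20905 to 36136 normalized counts in number 2, the highest in A2, and to 18395 to 24586 in the other numbers. Whether these calls rested on A2 was not tested. Ndrg1 had the smallest F test p of the list, and was higher in numbers 3 and 4 by 0.43 and 0.29 and lower in number 1 by -0.55.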

How the data were processed

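Lung mRNA of 24 rat samples was analysed from the authors' deposited table of normalized read counts, a signal per gene that is neither whole reads nor divided by length. STAR and the mouse build GRCm38 are named per the submitters' processing notes, although the samples are labelled rat. The counting, its use of strand, the annotation and the normalization are not given in the sources used here. Of 30667 gene names, 16143 match a rat RefSeq symbol, the 10 members among them.

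Values were tested as log2(value + 1) with limma 3.58.1 in R 4.3.3, with Benjamini-Hochberg adjustment over all 30667 genes and a threshold of 0.05. Fold changes are on that scale. Letters were compared in a fit with letter alone and with the number as a block as an alternative. Numbers were compared, each with the mean of the other 5, in a fit with letter and number. The scripts were tested on simulated data, with each value drawn independently. Apart from the changes put in, these held no effects of number or sample, so the test does not speak for data that have them. Correlations were computed in Python 3.11.15 with scipy 1.17.1.

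Whether equal numbers pair the samples was checked from the deviations of 21922 genes from their letter means. Every same-number correlation was over 0.1 for B with A (0.169 to 0.59) and C with B (0.127 to 0.596), and not for the other 4 pairs of letters. The pairing comes from the data and not from the labels.

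The members and lists were chosen with earlier results of these data known. Named with values were the members, their signalling partners, up to 3 called genes per list with the smallest p over numbers, and the genes most alike, of which 1 is not reported here. Csf3r, Pgk1, Ldha and Car9 were named after their values were seen. Other scalings, pseudocounts and filters, and fits without single samples or without A2, A4 and B4, were tried.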

Additional observations from a re-analysis of the deposited data

Results flagged for a closer look

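In 110 groups of values, the members by letter and by number and the aerocyte minus general capillary index, 3 held a sample whose gap to its nearest neighbour was large for the range of the group, and chance picks about 1 in 20, or 5.5. Gpihbp1 in number 5 was lowest in A5, at 1974 normalized counts, with 2349 to 2399 in the other 3 samples. Cdh5 in letter B was highest in B1, at 68671, with 42255 to 49736 in the other 5. The index in number 4 was highest in B4, at 0.145, with -0.1264 to -0.0899 in the other 3.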

How the results depend on the processing

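Of 131 alternative values for counts of genes, means of the index and the median r between members, 119 stayed within a set limit. The limit was 1.5 times the count reported for counts, the SD of the group for the index and a small fixed shift for the median r. Of 364 alternative values for single members 352 kept their direction and side of the threshold. These totals leave out the fits without single samples. The F test over letters called 2 genes, and 12 with the number as replicate block, 1 with a pseudocount of 10, 1 with quantile normalization, 1 with 75th percentile scaling and 1 without A2, A4 and B4. With the block, G against A gave 391 genes (1.27%) in place of 2, G against B 2 in place of 1 and G against C 11 in place of 2. In that blocked fit of G against A, Cldn5 had a log2 difference of 0.65 (limma adjusted p = 0.00921) and Gpihbp1 of 0.53 (adjusted p = 0.0478), although the numbers were not shown to pair these letters, and 3 of 6 numbers correlated best with themselves across them. The block changed no member's call in B against A or C against B. Without A2, A4 and B4, G against A gave 1 gene, and numbers 2, 4 and 5 gave 3357, 57 and 1014 genes in place of 6691, 1454 and 604. In the same fit Car4 in G against A was -0.0095 and Aplnr in number 2 was 0.034. Leaving out 1 sample at a time gave 1 to 2 genes over letters, 1 to 4 for G against A, 1 to 2 for G against B and for G against C, and 8528 to 10210 over numbers. It gave 1917 to 4100 for number 1, 3542 to 7111 for number 2, 543 to 2049 for number 3, 383 to 1976 for number 4, 2 to 891 for number 5 and 747 to 2999 for number 6. For G against A the log2 difference ran from -0.022 (without A2) to 0.17 in Car4, from -0.17 to 0.041 (without G2) in Kdr and from -0.23 to 0.050 (without G2) in Plvap, and for number 2 from -0.13 to 0.055 (without A2) in Aplnr, which was 0.024 without G2. With no letter term the F test over numbers missed the threshold for Cldn5 (adjusted p = 0.0810). The cause was not tested. The depth behind the normalized values is unknown.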

Other observations

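Genes of vessels other than capillaries were read by number as well. Of 8 artery genes 6 differed between numbers (limma F test) and of 6 vein genes 6. The same test called 31.5% of all genes and 58.3% of those with a mean of at least 1000. In the fit with letter alone, the F test over letters called 0 of them, and 2 of all 30667 genes. With the number as a block, 1 artery gene and 1 vein gene were called in G against A, and 1.27% of all genes. Mgp, an inhibitor of vessel calcification, was higher in numbers 1 and 2, by log2 differences of 0.61 and 0.54, and lower in number 6, by -0.75. Hey1, a Notch target of arteries, was lower in number 2 by -0.64 and higher in number 6 by 0.40. Nr2f2, the vein-defining transcription factor, was lower in numbers 2 and 3 by -0.25 and -0.39 and higher in number 6 by 0.28. Of 6 lymphatic genes 3 differed between numbers, a count between those shares. Lyve1, a hyaluronan receptor also carried by some macrophages, was lower in number 2 by -0.97 and higher in number 3 by 0.50. In number 1 the pericyte genes Pdgfrb and Notch3 were higher by 0.59 and 0.64, and the smooth muscle gene Acta2 by 0.80.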
